A study of Mus musculus with 2 samples.

Results

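The genes described here are *Col10a1*, which encodes collagen X, and 9 genes of transcription factors and cofactors, grouped here as its regulators. These 9 are *Runx1*, *Runx2*, *Runx3*, *Mef2a*, *Mef2c*, *Mef2d*, *Hdac4*, *Dlx5* and *Sp7*. Whether each acts on *Col10a1* in these cells was not tested. All 10 were taken by gene symbol, by a rule that used no measured level, and were found among the 23628 genes listed. The members were nevertheless chosen with earlier results of these data known. The study grew chondrospheres, colonies that arise from single cells, and sequenced their poly(A) RNA in 2 libraries of 1 condition, titled replicate 1 and replicate 2. The starting cells were taken at postnatal day 7 from the femoral heads of mice whose *Sox9* locus carries an IRES and EGFP, and were sorted as GFP-high and negative for endothelial, erythroid and leukocyte surface antigens. They were cultured in methylcellulose with serum, FGF2, BMP4, IGF1, LIF and TGF-beta1 at low oxygen, so both libraries share the reporter allele, the sort and every added factor. No untreated or other control library was analysed here. The study's methods treat each pup as a separate biological replicate, but neither they nor the labels tie these 2 libraries to separate pups or give the number of colonies pooled, so the spread between them may be technical.

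Collagen X is a short-chain collagen of the growth plate, laid down by chondrocytes as they enlarge into hypertrophic cells before cartilage is replaced by bone. RUNX factors bind DNA as a complex with CBF-beta, and RUNX2 in particular is known to drive chondrocyte hypertrophy, together with the MADS-box factor MEF2C. HDAC4, a class IIa histone deacetylase, is a known repressor that binds both RUNX2 and MEF2C and leaves the nucleus when it is phosphorylated. DLX5 is a homeobox activator of hypertrophy, and SP7 (osterix) acts downstream of RUNX2 in osteoblasts and hypertrophic chondrocytes. PTHrP signalling through its receptor and protein kinase A is known to hold hypertrophy back.

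Values are counts-per-million (CPM) over all reads assigned to genes, with an offset of 0.0001 that the deposited values carry subtracted. The step between low values implies 43300000 and 42100000 reads on genes, so 3 reads stand for 0.0693 and 0.0712 CPM. These limits cover counting error only. The 10 highest genes of each library held 43.4% and 34.7% of the total, and the CPM of every other gene depends on that share. All 7 chondrocyte markers were present in both libraries, led by *Col2a1* at 148953 and 100682 CPM. Of the markers of other cell types, only *Ctsk* (111 and 144 CPM) and, in replicate 2, *Dmp1* (40.4 CPM) passed 10 CPM, and the endothelial markers *Cdh5*, *Kdr*, *Tek* and *Tie1* were at 0 in both libraries. In bulk samples, fewer cells of a type and less RNA per cell cannot be told apart.

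The sequences around the start sites are shown first, because 3 members share a run of letters there that few other promoters hold. RefSeq windows of GRCm38.p6, from 250 bases before to 50 bases after each start, were at hand for 8 of the 10 members and gave 12 windows. A RUNX motif (TGTGGT on either strand, read as ACCACA on the other) was found in 16.8% of 32851 promoters. In *Runx1*, *Runx2* and *Runx3*, 2 copies stood 2 bases apart in the same orientation. For *Runx1* and *Runx3* this holds for the first start only, and the window of their second start had no RUNX match. The lines below give 30 bases around each pair on the strand of the gene, with the RUNX letters in capitals, from chr16:92826025-92826054 (minus strand), chr17:44814583-44814612 (minus strand) and chr4:135120503-135120532 (plus strand).
Runx1: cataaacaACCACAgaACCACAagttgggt
Runx2: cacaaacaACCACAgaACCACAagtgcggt
Runx3: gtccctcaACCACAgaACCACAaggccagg
The 3 windows share an unbroken run of 18 bases. Counted from the start site, the pair lies at +29 to +42 in *Runx1*, at +24 to +37 in *Runx2* and at -134 to -121 in *Runx3*. This spacing was searched for after the motif matches had been seen, and 7 of the 32851 promoters (0.0213%) hold it. The other 4 are *Gm12236*, *Gm15462*, *Olfr24* and *Gm16225*, of which *Gm16225* overlaps the *Runx3* window on the opposite strand. *Runx2* has a further single RUNX match at -80 to -75. A match is a description of letters and shows no binding.

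Among the MEF2 members, *Mef2a* alone had a match to the MEF2 consensus, a motif found in 3.19% of promoters. The match spans the start site, from -2 to +8, and is shown in capitals within chr7:67372841-67372870 (minus strand).
Mef2a: ggcctgactcCTAAAAATAGccccggtgtg
The 250 bases before the *Col10a1* start, chr10:34389731-34389980 (plus strand), are given because the other members are described beside this gene. The capitals mark TAATTA at -106 to -101, which holds 2 overlapping matches to the DLX motif TAATT on opposite strands, and the TATA box TATAAA at -32 to -27.
Col10a1: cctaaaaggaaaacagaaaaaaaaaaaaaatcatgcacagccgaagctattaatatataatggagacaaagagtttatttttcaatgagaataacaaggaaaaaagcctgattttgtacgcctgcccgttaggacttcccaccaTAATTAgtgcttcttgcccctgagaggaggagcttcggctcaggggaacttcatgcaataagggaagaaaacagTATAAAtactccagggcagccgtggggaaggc
The DLX motif was found in 27.0% of promoters and the TATA box letters in 13.6%, on either strand and anywhere in the window. The windows of the first and second *Mef2c* starts each held 3 DLX matches. Each also held 1 match to TATAAA on the strand opposite to the gene, unlike that of *Col10a1*. The first *Runx1* window and the *Hdac4* window each held 1 DLX match. No RUNX or MEF2 match lies in this *Col10a1* window, which says only that these letters are not in it. The *Hdac4* window held 5 matches to the GC box (GGGCGG), a motif present in 35.7% of promoters. The second *Runx3* window held 3, that of *Mef2d* 2 and the second *Mef2c* window 1. The AP-1 motif TGANTCA, found in 7.81% of promoters, occurred among the members only at the third *Mef2c* start.

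**Figure D1:**
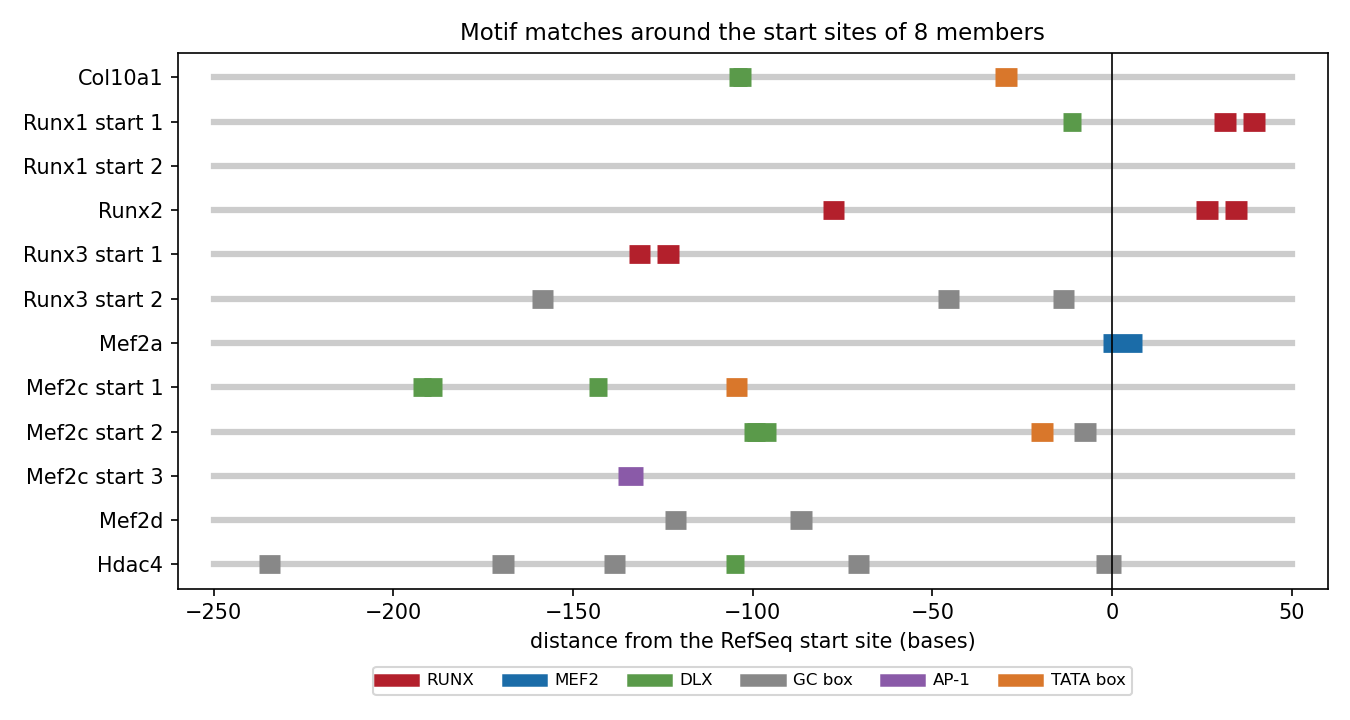
Motif matches in the 12 RefSeq windows of 8 members, plotted by distance from the start site in bases. Grey lines are the windows and coloured blocks the matches. The paired red blocks of *Runx2* and of the first starts of *Runx1* and *Runx3* are the RUNX pairs.

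*Col10a1* lies on chromosome 10 of GRCm38 from 34389981 to 34397085 on the plus strand, with 1 annotated transcript of 3 exons and 3130 bases. The primer pair that the study used for its quantitative PCR matches the coding part of exon 2 without mismatch and spans 115 bases, chr10:34390641-34390755.
Col10a1 forward: ttctgctgctaatgttcttgacc
Col10a1 reverse: gggatgaagtattgtgtcttggg
In the RNA-sequencing libraries *Col10a1* stood at 1752 CPM (replicate 1) and 2109 CPM (replicate 2), on average 1931 ± 252 (SD, n = 2). It rests on 75835 and 88897 reads, which makes it the most precisely counted of the members. *Nt5dc1*, a gene on the opposite strand that spans the whole *Col10a1* locus, shares only 18 exonic bases with it and was at 11.4 and 9.54 CPM. The genes nearest to *Col10a1* by Euclidean distance of log2(CPM + 0.1) over the 2 libraries were *Sdc3* (0.04), *Col5a2* (0.16) and *Lox* (0.26). *Sdc3*, which encodes the proteoglycan syndecan-3, was at 1727 and 2065 CPM. Likeness over 2 libraries of 1 condition describes level only.

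To set genes side by side, CPM was divided by the exonic length of each gene in kilobases. On this scale *Col10a1* stood at 560 and 674 CPM per kilobase, and the 9 regulators between 0.450 and 16.4. Its ratio to the highest regulator, *Mef2d*, was 5.40 ± 0.06 on the log2 scale (SD, n = 2). Its ratio to *Runx1* was nearly the same in both libraries, 75.5-fold and 72.0-fold. In contrast, its ratio to *Runx2* was 306-fold in replicate 1 and 150.3-fold in replicate 2, and its log2 ratio to *Sp7* was 9.92 and 8.39. The log2 ratio of *Col10a1* to the repressor *Hdac4* was 9.37 and 8.94. For every one of the 9 regulators the *Col10a1* ratio exceeded its own spread between the libraries.

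**Figure D2:**
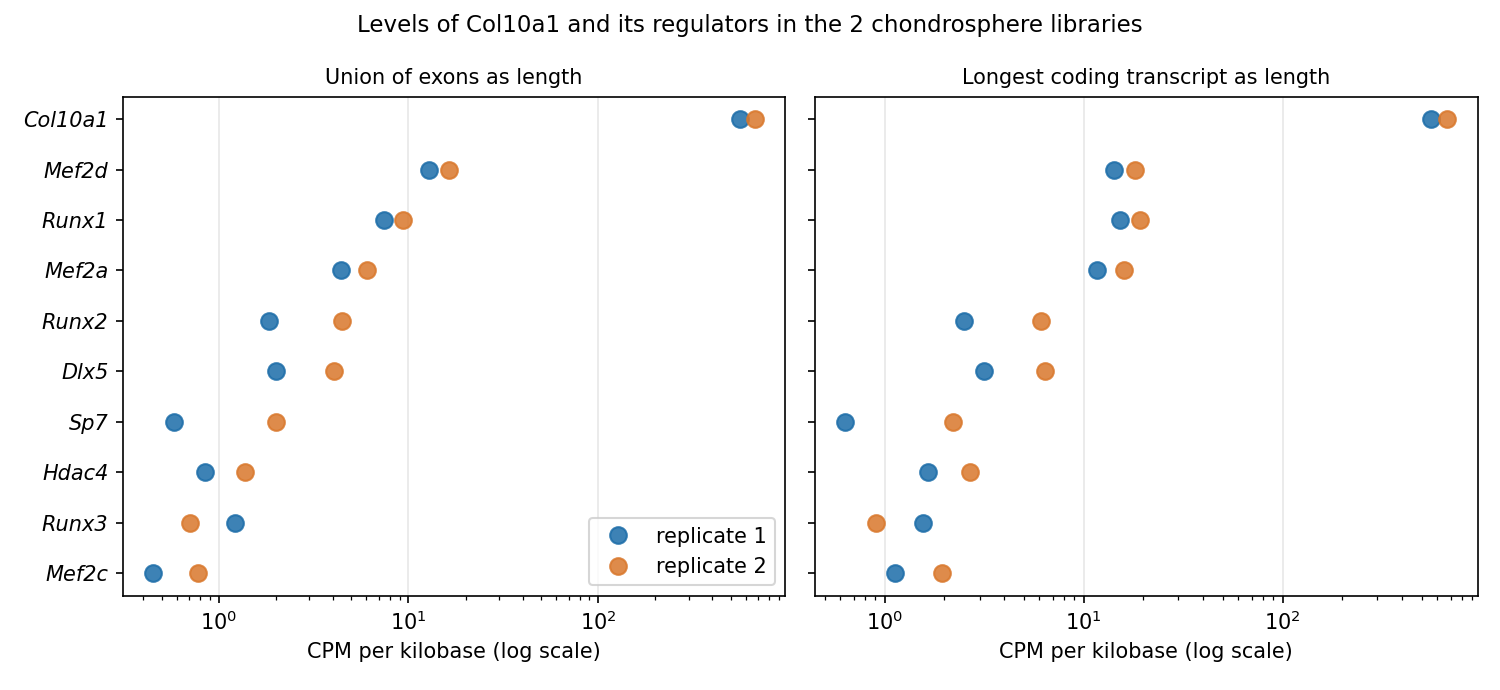
CPM per kilobase (log scale) of the 10 members in replicate 1 (blue) and replicate 2 (orange), with the union of exons (left) or the longest coding transcript (right) as length. *Col10a1* lies at 560 and 674 CPM per kilobase, apart from all 9 regulators. *Runx3* is the member whose replicate 1 point lies to the right of its replicate 2 point, and the points of *Sp7* lie the widest apart.

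*Runx1* had the highest level of the RUNX genes per kilobase. Found on chromosome 16 from 92601466 to 92826149, it had 89.1 and 113 CPM, with a mean and SD of 101 ± 16.6 (n = 2). *Runx2*, on chromosome 17 from 44495987 to 44814797, had 16.2 CPM (701 reads) in replicate 1 and 39.6 CPM (1670 reads) in replicate 2. *Runx3*, on chromosome 4 from 135120652 to 135177990 and expressed in prehypertrophic chondrocytes as well as in lymphocytes, had 6.05 and 3.51 CPM, or 262 and 148 reads. *Runx1* and *Runx2* were thus higher in CPM in replicate 2, and *Runx3* in replicate 1.

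Per kilobase, *Runx1* exceeded *Runx2* by 4.05-fold in replicate 1 and 2.09-fold in replicate 2, or 1.54 ± 0.67 as a log2 ratio (SD, n = 2). *Runx1* held 70.9% and 64.4% of the summed RUNX level per kilobase. The share of *Runx2* was 17.5% and 30.8%, and that of *Runx3* 11.6% and 4.82%. The order *Runx1*, *Runx2*, *Runx3* was the same in both libraries. The log2 ratio of *Runx3* to *Runx2* was -0.60 in replicate 1 and -2.68 in replicate 2, the widest difference between libraries of any ratio to *Runx2* computed here. *Cbfb*, the shared partner subunit of the family, was at 57.2 and 128 CPM. Its log2 ratio to the summed RUNX genes was 0.65 and 1.34 per kilobase, but -0.62 on average without division by length, so its order against the family depends on length. *Sox9*, the chondrocyte factor whose locus carries the reporter, exceeded *Runx2* by a log2 ratio of 5.06 and 3.91 per kilobase.

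The antisense gene *Runx2os1* shares 519 exonic bases (5.87%) with *Runx2* and was at 0.589 and 0.197 CPM. *Supt3*, which overlaps the *Runx2* locus on the opposite strand, shares no exonic base and was at 6.84 and 8.26 CPM. The kit marked strand, but whether the counting used it is not given in the sources used here, so reads from overlapping genes on opposite strands cannot be told apart with certainty. No stretch of 50 bases, the read length, was shared between members, and at most 1.91% of such stretches (in *Mef2a*) also occur in another gene on the same strand. On either strand the share was 21.6% for *Hdac4*, 7.81% for *Mef2d*, 5.66% for *Runx2* and at most 3.65% for the others. The genes nearest to *Runx2* by distance of log2(CPM + 0.1) were *Antxr2* (0.08), *Irf2bp2* (0.08) and *Pcdhgc5* (0.11). *Antxr2*, an anthrax toxin receptor gene, had 16.7 and 38.0 CPM.

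Of the 3 MEF2 genes among the members, *Mef2d* had the highest level per kilobase, and *Mef2c*, the one best known in hypertrophy, the least. *Mef2d*, on chromosome 3 from 88142372 to 88172086, reached 76.8 and 98.4 CPM. *Mef2a*, on chromosome 7 from 67231163 to 67372858, reached 64.5 and 88.9 CPM. *Mef2c*, on chromosome 13 from 83504034 to 83667080, had 7.07 CPM (306 reads) and 12.2 CPM (516 reads). All 3 were higher in CPM in replicate 2, as was the median gene, by a log2 ratio of 0.30. Their order per kilobase did not change. Per kilobase, *Mef2d* held 72.6% and 70.6% of the summed level of the 3 genes, *Mef2a* 24.9% and 26.0%, and *Mef2c* 2.55% and 3.35%.

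Within each library *Mef2d* exceeded *Mef2c* by a log2 ratio of 4.83 and 4.40, and *Mef2a* exceeded *Mef2c* by 3.29 and 2.96. Both ratios were several times their spread between the libraries. *Mef2c* has 31 annotated transcripts and 15715 exonic bases, against 6277 bases in its longest coding transcript, so its level per kilobase depends on the length chosen. By the longest coding transcript *Mef2d* and *Mef2a* were closer, at 52.7% and 50.3% against 43.2% and 44.3%, and *Mef2c* held 4.17% and 5.39%. *Mef2b*, the remaining family gene and no member, was at 0.186 and 0.178 CPM, or 8 and 7 reads. Per kilobase *Mef2b* was below *Mef2c*, with a log2 ratio of -1.76 and -2.62.

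**Figure D3:**
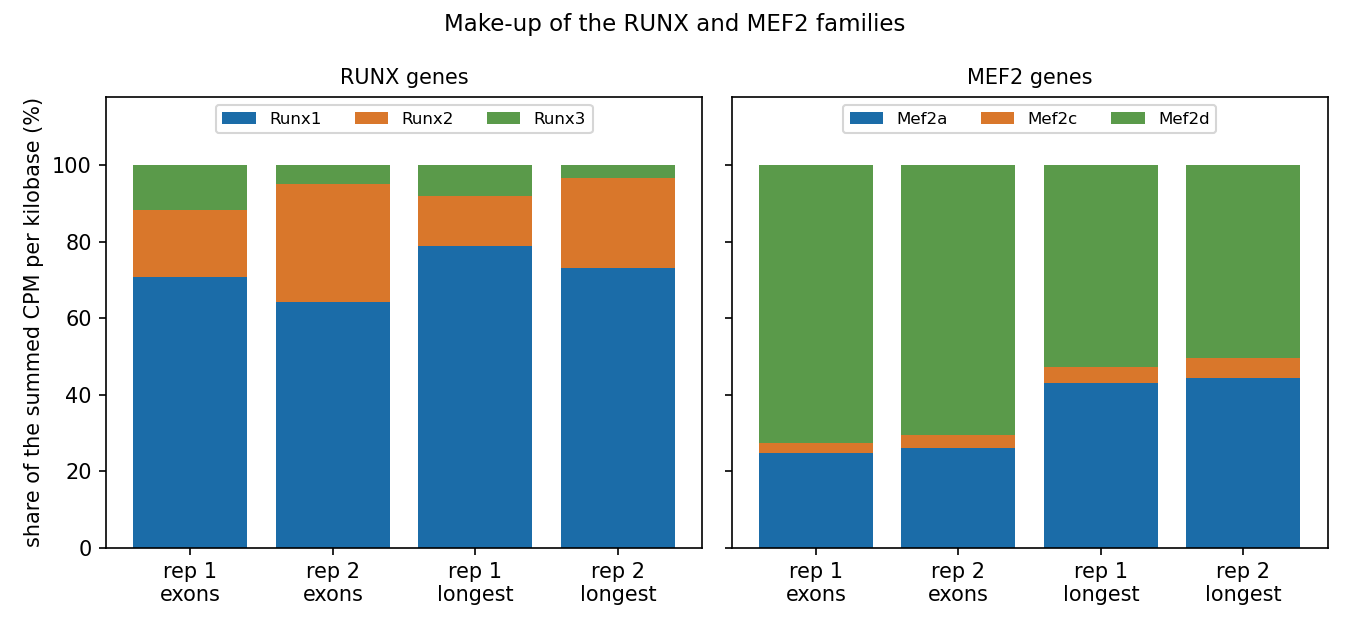
Stacked bars give the share (%) of each gene in the summed CPM per kilobase of the members of its family. RUNX genes are on the left and MEF2 genes, without *Mef2b*, on the right. Each library is shown with the union of exons and with the longest coding transcript as length. *Runx1* takes 64.4% or more of every RUNX bar, and *Mef2c* at most 5.39% of every MEF2 bar.

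*Hdac4* was detected in both libraries. It lies on chromosome 1 from 91928779 to 92195699, has 15813 exonic bases, and stood at 13.4 and 21.7 CPM, or 17.5 ± 5.82 on average (SD, n = 2). It rests on 581 and 913 reads. *Gm26720*, a noncoding gene on the opposite strand that is not among the listed names, covers 3536 of the exonic bases (22.4%).

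Per kilobase, the summed MEF2 genes (the members, without *Mef2b*) exceeded *Hdac4* by 20.8-fold in replicate 1 and 17.0-fold in replicate 2. Against *Mef2c* alone *Hdac4* was the higher, by a log2 ratio of 0.92 and 0.81, the steadiest ratio of *Hdac4* between the libraries. Against *Runx2* it was the lower, by -1.11 and -1.71. Other class IIa deacetylases were also measured. *Hdac5* was at 29.2 and 33.1 CPM, and *Hdac4* stood below it per kilobase by a log2 ratio of -1.72 ± 0.36 (SD, n = 2). *Hdac7* was at 3.07 and 6.64 CPM and *Hdac9* at 0.116 and 0.308 CPM. *Hdac3*, the class I enzyme that class IIa proteins recruit, had 29.4 and 36.2 CPM. RNA levels do not show where HDAC4 protein lies in the cell.

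*Dlx5* and *Sp7*, both activators of skeletal genes, rest on few reads. *Dlx5*, on chromosome 6 from 6877805 to 6882085, had 4.51 CPM (195 reads) and 9.13 CPM (385 reads). *Sp7*, on chromosome 15 from 102356606 to 102367182, stood at 1.96 CPM from 85 reads and 6.81 CPM from 287 reads. Both were higher in CPM in replicate 2, as was the median gene, by a log2 ratio of 0.30. *Dlx5* kept a steady ratio to *Runx2* per kilobase, 0.12 and -0.15 on the log2 scale, a mean of -0.02 ± 0.19 (SD, n = 2). The log2 ratio of *Sp7* to *Runx2* was -1.66 and -1.16.

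Ordered by mean CPM per kilobase, the members ran *Col10a1*, *Mef2d*, *Runx1*, *Mef2a*, *Runx2*, *Dlx5*, *Sp7*, *Hdac4*, *Runx3* and *Mef2c*. Neighbours were called apart where their ratio had the same sign in both libraries and its mean exceeded its SD. By that rule *Runx2* and *Dlx5* did not differ beyond their spread, nor did *Sp7*, *Hdac4*, *Runx3* and *Mef2c*, each from the next. With the longest coding transcript as length, *Runx1* (15.2 and 19.2) came before *Mef2d* (14.2 and 18.2), and *Mef2c* before *Sp7* and *Runx3*. By that length *Dlx5* came before *Runx2* and was apart from it (0.20 ± 0.19 as a log2 ratio, SD, n = 2), as was *Hdac4* from *Mef2c* (0.51 ± 0.07), while *Mef2c*, *Sp7* and *Runx3* were not apart, each from the next.

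The libraries were then compared, as log2(CPM + 0.1) in replicate 2 minus that in replicate 1, less the median of 0.30 over the 12631 expressed genes (mean of both libraries 1 CPM or more). On this centred scale 1704 of the genes (13.5%) differed by over 2-fold, 7.43% higher and 6.06% lower in replicate 2. Of the 10 members, all of them expressed by this filter, 2 (20%) were past 2-fold, *Sp7* higher and *Runx3* lower in replicate 2. With 10 members, 2 against a background of 13.5% is not a result about the group. With 1 library on each side of this comparison there is no replicate check, and no test was made.

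*Sp7* was higher in replicate 2 by 1.44 on the centred log2 scale, against a counting error of 0.18. *Runx3* was at -1.07, against a counting error of 0.15. *Runx2* lay just within the threshold at 0.98, or 1.98-fold, with a counting error of 0.06, and its CPM without centring differed by 2.45-fold. *Dlx5* followed at 0.70, *Mef2c* at 0.48 and *Hdac4* at 0.38. *Col10a1* (-0.04), *Runx1* (0.03), *Mef2d* (0.05) and *Mef2a* (0.16) differed by less than the median gene, whose absolute difference was 0.30. On this scale 8 of the 10 members lay above 0, the repressor *Hdac4* among them, and *Runx3* and *Col10a1* lay below. The median over the members was 0.27, on a scale where the median of all genes is 0.

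**Figure D4:**
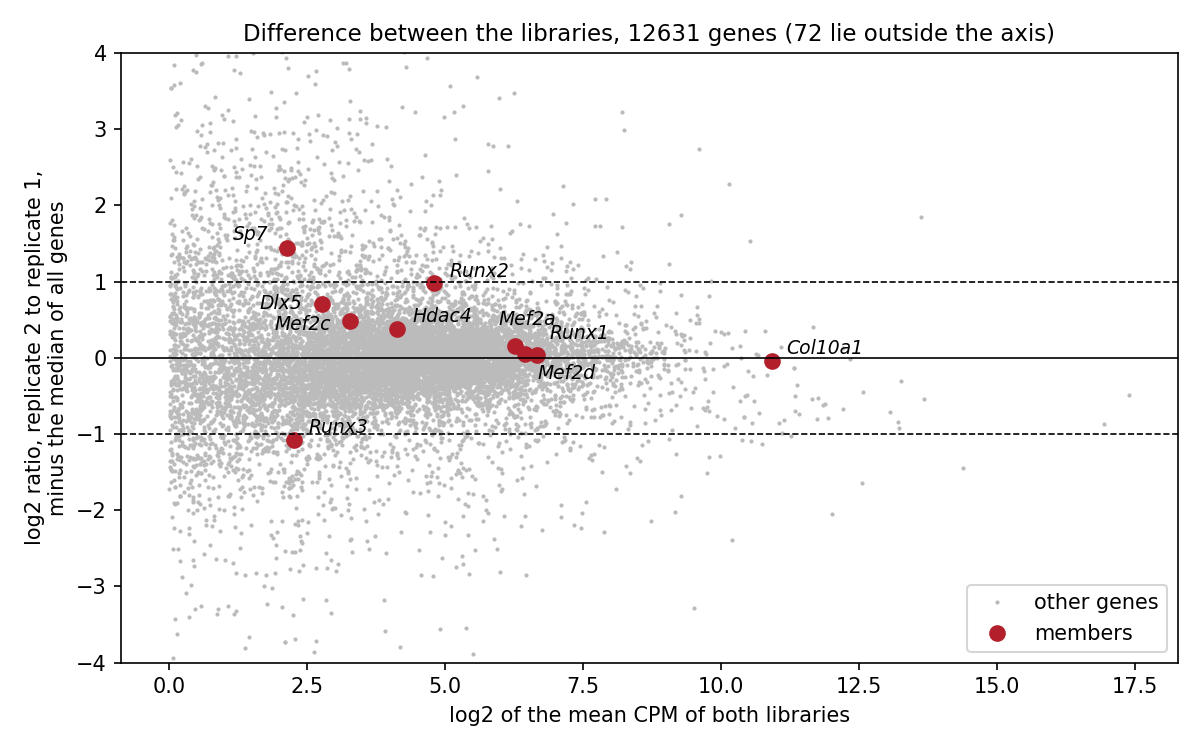
Centred log2 ratio of replicate 2 to replicate 1 against the log2 mean CPM for 12631 genes (grey) and the 10 members (red, named). Dashed lines mark 2-fold, and 72 genes lie outside the axis. *Sp7* (1.44) lies above the upper line, *Runx3* (-1.07) below the lower one, and *Runx2* (0.98) at the upper line.

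Counts of markers past 2-fold stand beside 13.5% of all expressed genes, and with lists this short they are not results about the lists. Of the 8 osteoblast markers, 3 were expressed, and *Dmp1* alone was past 2-fold, higher in replicate 2 like *Sp7*. *Dmp1* passed the filter only through replicate 2. The 8 summed to 3.98 and 46.4 CPM, and without *Dmp1* the other 7 summed to 3.87 and 5.98 CPM. The defining osteocyte genes *Sost* and *Mepe* were at 0 in both libraries. Among the chondrocyte markers, *Matn3* (matrilin-3) was at 741 and 53.1 CPM, a centred log2 ratio of -4.10, and *Col9a1* (collagen IX) at 1881 and 1087 CPM, a ratio of -1.09. These were the 2 of 7 past 2-fold, and the median of the 7 was -0.84. Together the 7 had 177491 and 122316 CPM, most of it *Col2a1*. The leukocyte markers, 9 of 10 of which are listed, summed to 120 and 147 CPM. Most of that was *Ctsk* at 111 and 144 CPM, with *Ptprc* at 0.023 and 0.047 CPM and *Adgre1* and *Itgam* at 0. *Acp5*, like *Ctsk* known from osteoclasts, was at 6.07 and 0.712 CPM, the 1 of 3 expressed leukocyte markers past 2-fold. *Acp5* passed the filter only through replicate 1. The part of these differences in the values of *Sp7*, *Runx2*, *Runx3* and *Dlx5* was not tested.

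Other genes of the pathway were read from lists by role, chosen with results of these libraries known, and counts are set beside the 13.5% of all expressed genes past 2-fold. Of 12 products of hypertrophic chondrocytes and early bone cells other than *Col10a1*, 9 were expressed, and of these 5 were higher and 1 lower in replicate 2 past 2-fold. The median of the 9 was 1.54. *Mmp13*, a collagenase of the terminal growth plate and a RUNX2 target, was at 8.96 and 44.8 CPM. *Spp1* (osteopontin) was at 4620 and 20524 CPM, *Panx3* at 0.670 and 2.75, and *Alpl*, the tissue-nonspecific alkaline phosphatase, at 0.462 and 1.92. *Dmp1*, a matrix protein of osteocytes and late hypertrophic cells, was at 0.116 and 40.4 CPM, the widest gap in the list. *Panx3*, *Alpl* and *Dmp1* were under 1 CPM in replicate 1 and counted as expressed only through replicate 2. The filter thus fixes their direction in part, and with it the median of the list. *Phospho1*, a phosphatase of matrix vesicles, was the lower, at 14.9 and 8.79 CPM.

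Bone sialoprotein (*Ibsp*) at 2.24 and 3.27 CPM and *Vegfa* at 103 and 93.1 CPM did not pass 2-fold. *Ihh*, the hedgehog ligand of prehypertrophic cells, was at 0 in replicate 1 and 0.332 CPM in replicate 2, and *Mepe* was at 0 in both. *Col10a1* was at -0.04 on the centred scale, and the nearest to 0 of the 9 products was *Bglap2* at 0.05. *Bglap* and *Bglap2* are near-identical copies whose reads can be divided between them, and their values are uncertain. This list shares *Dmp1*, *Ibsp*, *Bglap*, *Bglap2* and *Mepe* with the osteoblast markers.

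The 20 partners and modulators of RUNX proteins gave 18 expressed genes with a median of 0.08. *Hey1*, a Notch target that represses RUNX2 activity, was lower in replicate 2 past 2-fold, at 3.0 and 1.33 CPM. Highest by mean CPM, which is not divided by length, were the ubiquitin ligase gene *Wwp2* at 949 and 789, *Wwtr1* (TAZ) at 153 and 192, and the repressor gene *Trps1* at 121 and 164. *Cbfb* differed by a centred log2 ratio of 0.86.

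Of 25 genes of the MEF2 and class IIa deacetylase axis, 23 were expressed, and none was higher and 3 were lower in replicate 2 past 2-fold, with a median of -0.01. That is 13.04% of the list, beside 13.5% of all expressed genes. The 3 are kinase genes, and the other 8 kinase genes of the list did not pass 2-fold. *Camk2b* was at 15.8 and 3.63 CPM, *Sik1* at 5.75 and 2.54 CPM, and *Camk4* at 2.57 and 1.33 CPM. *Sik3*, the salt-inducible kinase known to release MEF2 from HDAC4 in growth plate chondrocytes, was at 41.1 and 49.7 CPM. Highest by mean CPM were *Ywhae* (222 and 305), *Ywhaz* (173 and 353) and *Ywhag* (130 and 237), which encode the adaptors that hold phosphorylated HDAC4 in the cytoplasm.

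The 9 other DLX, MSX and SP genes gave 6 that were expressed, of which 3 were higher and none lower in replicate 2, with a median of 1.23. *Dlx1* was at 3.34 and 19.3 CPM, and its genomic neighbour *Dlx2* at 7.12 and 26.1 CPM. *Msx2*, a homeobox factor of skeletal cells, was at 4.11 and 15.8 CPM. *Dlx6*, the neighbour of *Dlx5* in the genome, was at 0.069 and 0.442 CPM, and *Dlx4* stayed under 3 reads in both libraries. The zinc-finger genes *Sp1* (29.5 and 44.4 CPM) and *Sp3* (27.2 and 33.6 CPM) did not pass 2-fold. *Dlx5* at 0.70 thus lay below *Dlx1*, *Dlx2* and *Msx2* on the centred scale.

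Of 17 other factors known to act on chondrocyte hypertrophy, all expressed, 3 were higher and 4 lower in replicate 2 past 2-fold, with a median of -0.23. Higher were *Lef1* (1.89 and 21.7 CPM), a Wnt effector that binds RUNX2, and the forkhead genes *Foxa2* (0.439 and 1.61) and *Foxa3* (3.05 and 10.4), activators of hypertrophy. *Foxa2* passed the filter only through replicate 2. Lower were the AP-1 genes *Fos* (54.3 and 5.60), *Jun* (62.1 and 20.1) and *Jund* (124 and 72.3), and *Epas1* (6.70 and 3.77), which encodes HIF-2alpha. The other AP-1 genes of the list, *Fosl2* (84.3 and 106) and *Junb* (80.3 and 76.0), did not pass 2-fold, at 0.03 and -0.38 on the centred scale. *Sox9* was at 252 and 279 CPM. The 5 genes of PTHrP signalling gave 4 that were expressed and none past 2-fold, with a median of 0.04. The receptor gene *Pth1r* was at 137 CPM in both libraries and its ligand gene *Pthlh* at 0.347 and 0.142 CPM. With *Pth1r*, the highest of the list by mean CPM were *Gnas* (985 and 1131) and *Prkacb* (60.6 and 116).

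**Figure D5:**
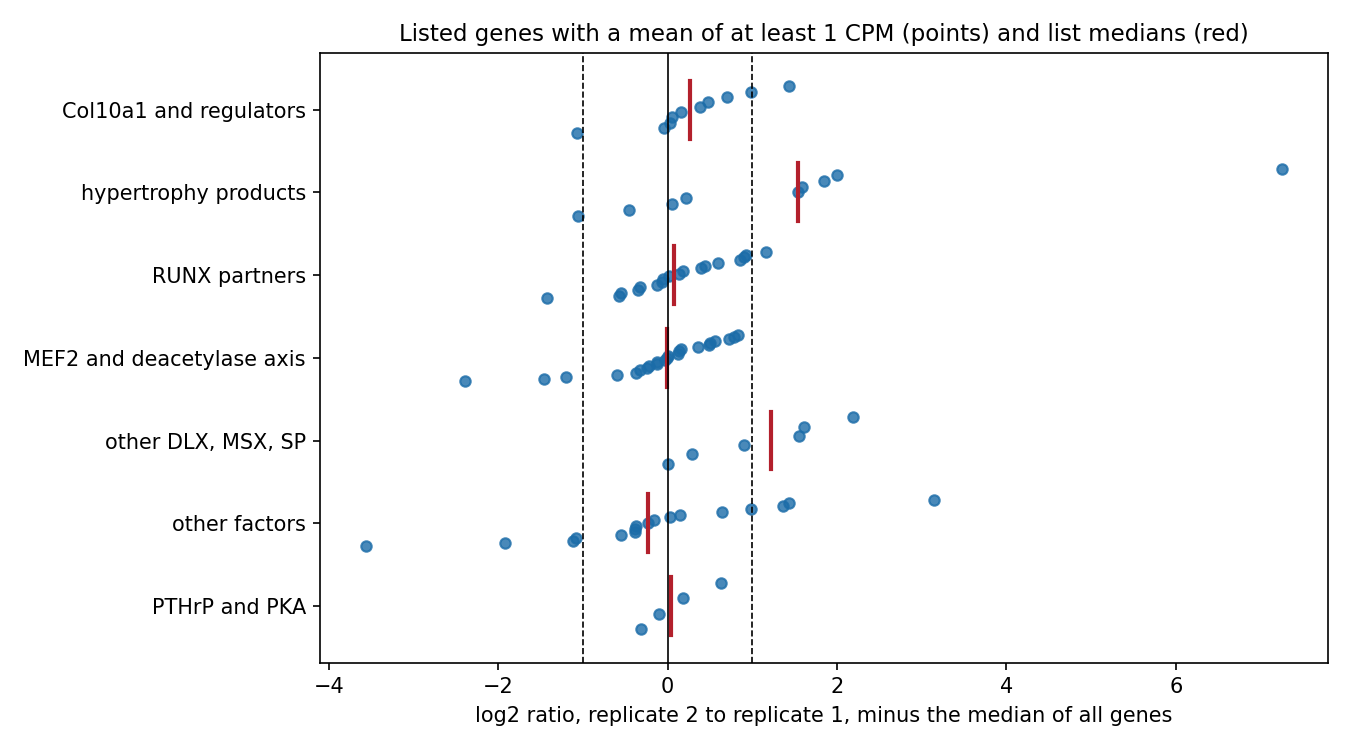
Centred log2 ratio of replicate 2 to replicate 1 for the members and the pathway lists, expressed genes only. Points are genes in order of value, red bars list medians, dashed lines 2-fold. The medians of the products other than *Col10a1* (1.54) and of the DLX, MSX and SP genes (1.23) lie to the right. Of the products, *Phospho1* (-1.06) and *Vegfa* (-0.46) lie to the left, and *Panx3*, *Alpl* and *Dmp1* passed the filter only through replicate 2. The RUNX partners (0.08) and the deacetylase axis (-0.01) are centred near 0.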

How the data were processed

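RNA was sequenced from 2 chondrosphere libraries as single-end reads of 50 bases. The deposited values are CPM. The authors obtained them within Partek Flow, by alignment to GRCm38 (GENCODE M25) with STAR, Partek E/M counting and division by the total. The submitters' processing notes name Partek 10.0.21.0801 and STAR 2.7.3a. An offset of 0.0001 CPM was subtracted. Of the low values, 65.0% and 64.0% were whole reads within 0.02 reads, so no count model was fitted.

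From the CPM, mean ± SD (n = 2), log2 ratios within each library and log2(CPM + 0.1) ratios between the libraries were computed. Fold changes on that scale understate the change of low genes. With 1 condition, no test or p-value was computed. Lengths and positions come from GENCODE M21 on GRCm38, in which 22967 names (97.2%) matched 1 gene. Promoters come from RefSeq on GRCm38.p6. Protein sequences were not analysed here. Python 3.11.15, numpy 2.4.6, pandas 2.3.3 and matplotlib 3.10.9 were used. Only the step between low values and the ratios between the libraries were tested on simulated data. Those data held counting error alone as spread.

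The members and lists were chosen with earlier results of these data known. Named were all members, some of the overlapping genes, and the 3 genes nearest in level to *Col10a1* and to *Runx2*. Of the pathway lists, the 3 highest by mean CPM, those past 2-fold, those under 3 reads and set genes by role were named. Of the marker lists and the groups under other observations, only part of the genes were named. One result of the RUNX partner list is not reported here. The marker *Cd3e* is not among the listed names. Marker lists covered chondrocytes, osteoblasts, leukocytes, endothelium, muscle (summed 0.538 and 0.911 CPM), erythroid cells (0.0930 and 0.0962 CPM) and fibroblasts (2.40 and 2.86 CPM). Alternatives covered scaling, pseudocount, filter, length and leaving out each library. The upper-quartile scaling for the number of members past 2-fold was added after seeing the data.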

Additional observations from a re-analysis of the deposited data

How the results depend on the processing

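Of 125 alternative values other than those that leave out a library, 80 kept the result and 39 moved it. The 64 values without 1 library lie within 1 SD by construction, since 2 libraries set the SD, and show nothing of stability. *Sp7* was at 1.96 CPM without replicate 2 and 6.81 CPM without replicate 1. Where a value moved, the cause was not tested beyond what the setting itself changes. Leaving the 10 highest genes out of the total gave a mean of 3150 CPM for *Col10a1*. Without centring, *Runx2* differed between the libraries by 1.29 and *Dlx5* by 1.004 (log2), *Runx3* was at -0.77, and the members past 2-fold were *Runx2*, *Dlx5* and *Sp7*. A trimmed mean of log ratios put *Runx2* at 1.001, just past 2-fold. With a pseudocount of 1 CPM, *Runx3* was at -0.93 and 1 member, *Sp7*, remained past 2-fold. The number of genes past 2-fold was 565 at a filter of 10 CPM on the mean and 4362 over all genes above 0. Higher in replicate 2 were 55.05% of the 1704 genes past 2-fold in the report, against 75.4% (1435 higher and 468 lower) without centring and 42.9% (1871 and 2491) over all genes above 0. The log2 ratio of *Hdac4* to the summed MEF2 genes was -3.89 by the longest coding transcript and -3.33 without length, and that of *Cbfb* to the summed RUNX genes was reversed to -0.62 without length. Leaving out either library gave 2.02 and 1.06 for *Runx1* against *Runx2*. No paired analysis was possible because the libraries form 1 group. Counting error alone limits the ratios of *Sp7* (0.18) and *Runx3* (0.15) most.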

Other observations

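Other gene groups were set beside the members after their values were seen, and are given as values only, beside the 13.5% of all expressed genes past 2-fold. Of 8 immediate-early genes, which respond within minutes to stimuli such as serum or cell handling, none was higher and 6 were lower in replicate 2 past 2-fold on the centred scale, with a median of -1.53. *Fosb* was at 68.6 and 4.27 CPM, *Egr1* at 112 and 45.7, *Dusp1* at 88.8 and 39.8, and *Atf3* at 9.80 and 5.84. *Fos* and *Jun*, 2 of the factors described beside *Col10a1*, belong to the same group. *Ier2* (22.5 and 16.9) and *Nr4a1* (1.04 and 2.47) did not pass 2-fold.

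Of 7 genes of BMP signalling, 6 had a mean CPM of 1 or more, and 2 were higher and none lower in replicate 2 past 2-fold, with a median of 0.90. *Bmp2*, a ligand known to act upstream of *Runx2*, *Dlx5* and *Sp7*, was at 2.26 and 78.6 CPM, a centred log2 ratio of 4.75. *Smad7*, an inhibitory SMAD induced by BMP and TGF-beta, was at 15.6 and 53.6 CPM. *Id1*, a direct BMP target, was at 46.5 and 114 CPM, or 0.99 on the centred scale. The relation of these groups to the members was not tested.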
